A study of Mus musculus with 8 samples.

Results

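Peritoneal macrophages of mice lacking the Fc gamma chain (KO) were compared with wild-type macrophages (WT) after alternative activation with interleukin-4 (IL-4). The comparison takes 4 of the 8 arrays in the series, chosen by their sample titles: 2 arrays of IL-4-treated KO cells and 2 of IL-4-treated WT cells. The unstimulated cells of the same genotypes, 2 arrays each, show whether a difference was already there without the cytokine. Mice of both genotypes are labelled C57BL/6, the KO line only as Fc gamma chain knockout, without the construct or the age of the animals. All cells rested overnight on plates in medium that held serum and L929 supernatant, which supplies M-CSF, and the cells that floated were thrown away. IL-4 was given at 10 ng/ml for 6 h. Each sample's biotin-labelled cRNA went on 1 bead array of the type Illumina Mouse Ref-8. No label ties a sample to an animal, so the p-values rest on how far duplicates lie apart, and that spread may be technical.

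The gamma chain, encoded by Fcer1g, is a small membrane adaptor that carries an ITAM, the tyrosine motif through which Syk-family kinases are recruited. It assembles with the activating Fc receptors for immunoglobulin G and E and, in mouse macrophages, with C-type lectins such as Mincle and Dectin-2. IL-4 acts through its own receptor and STAT6, and in peritoneal macrophages it induces arginase, chitinase-like and resistin-like proteins, the mannose receptor and a set of chemokines. That programme is called alternative activation, in contrast to the NF-kB programme that microbial products start.

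Values are the deposited normalized intensities on a linear scale. Intensities below about 93 units count as background, and the brightest probes read 18303 units. Background correction widens the log2 differences of genes that read near background, so their size depends on that step. Differences are KO minus WT on the log2 scale after background correction, with the standard error (SE) of a limma fit over 9856 genes and a Benjamini-Hochberg adjusted p; a gene passed where that p was under 0.05. Duplicate arrays correlated at 0.994 to 0.995, and IL-4-treated KO arrays correlated with IL-4-treated WT arrays at 0.985 to 0.988. A label-permuting test of 2 arrays against 2 cannot go below an exact p of 0.333, so the limma fit carries every call.

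The targeted transcript was not detected on the KO arrays. Fcer1g read 91.8 and 86.6 units on the KO arrays with IL-4, both below background, against 9915 and 10170 on the WT arrays with IL-4. On the scale of these uncorrected intensities that is at least 108-fold lower in KO, with the KO arrays set to the lowest signal above background (adjusted p = 5.05e-15 after background correction). The bounds given further on for other genes below background are on the same scale. Unstimulated cells gave 85.7 and 87.5 in KO and 12988 on each WT array. The sources used here do not place the probe inside or outside the deleted part of the gene.

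The activating receptors for immunoglobulin G, which need the chain, were not lower in their mRNA. Fcgr3, the low-affinity activating receptor for immunoglobulin G, read 8312 and 8750 units in IL-4-treated KO cells, against 2318 and 2603 in IL-4-treated WT cells, a log2 difference of 1.82 (SE 0.09, adjusted p = 2.3e-08). Fcgr4, an activating receptor for some mouse IgG subclasses, read 1287 and 2421 in KO against 592 and 733 in WT (log2 1.52, SE 0.31, adjusted p = 0.0104). Groups did not overlap for either gene, although the KO duplicates of Fcgr4 lay far apart, and Fcgr4 did not pass without KO replicate 2 (adjusted p = 0.119), without WT replicate 1 (0.0829) or with robust variance estimates (0.271). Fcgr1, the high-affinity receptor, read 325 and 354 in KO and 226 and 259 in WT (log2 0.64, SE 0.15, adjusted p = 0.024). Fcgrt, the neonatal Fc receptor that salvages IgG, read 309 and 340 in KO and 251 and 195 in WT (log2 0.74, SE 0.16, adjusted p = 0.013). Both lost their call when replicate 2 of the IL-4-treated KO was left out, with adjusted p up to 0.18 for Fcgr1 and 0.16 for Fcgrt over all settings. Fcgr2b, the inhibitory receptor, which has no need of the chain, read 6118 and 6512 in KO and 5823 and 5407 in WT. Its log2 difference of 0.17 did not pass (adjusted p = 0.33). Fcer1a, of the receptor for immunoglobulin E, read 162 and 210 in KO and 214 and 264 in WT. Its log2 difference of -0.54 did not pass (adjusted p = 0.17), and it lies 27 tested genes from Fcer1g. Of all tested genes 2.44% were higher and 2.66% lower. Of 11 tested Fc receptor genes 4 were higher and 1, Fcer1g, lower, and the higher ones came down to 1 without KO replicate 2. Fcgr3, Fcgr4 and Fcgr2b lie within 4 tested genes of Fcer1g on chromosome 1, and differences of genes there cannot be told apart from what the chromosome region around the targeted gene carries.

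Across all genes, 502 of 9856 differed between KO and WT with IL-4 (5.09%), of which 240 were higher in KO (2.44%) and 262 lower (2.66%). After background correction the difference was 2-fold or more for 27 of the higher genes and 77 of the lower genes. At an unadjusted p under 0.05 the number was 1647. The median difference of all genes was 0.02 on the log2 scale. Counts of list members given below are to be read beside these shares, 2.44% higher and 2.66% lower. The KO and WT arrays lay apart for all 502 genes, but that was also true of 47.5% of all tested genes, 26.6% with KO above WT and 20.9% with KO below. The count was 257 without WT replicate 2 and 273 without KO replicate 2 of the IL-4-treated cells. Since whole cultures were measured, fewer cells of a kind and less RNA per cell cannot be told apart.

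**Figure D1:**
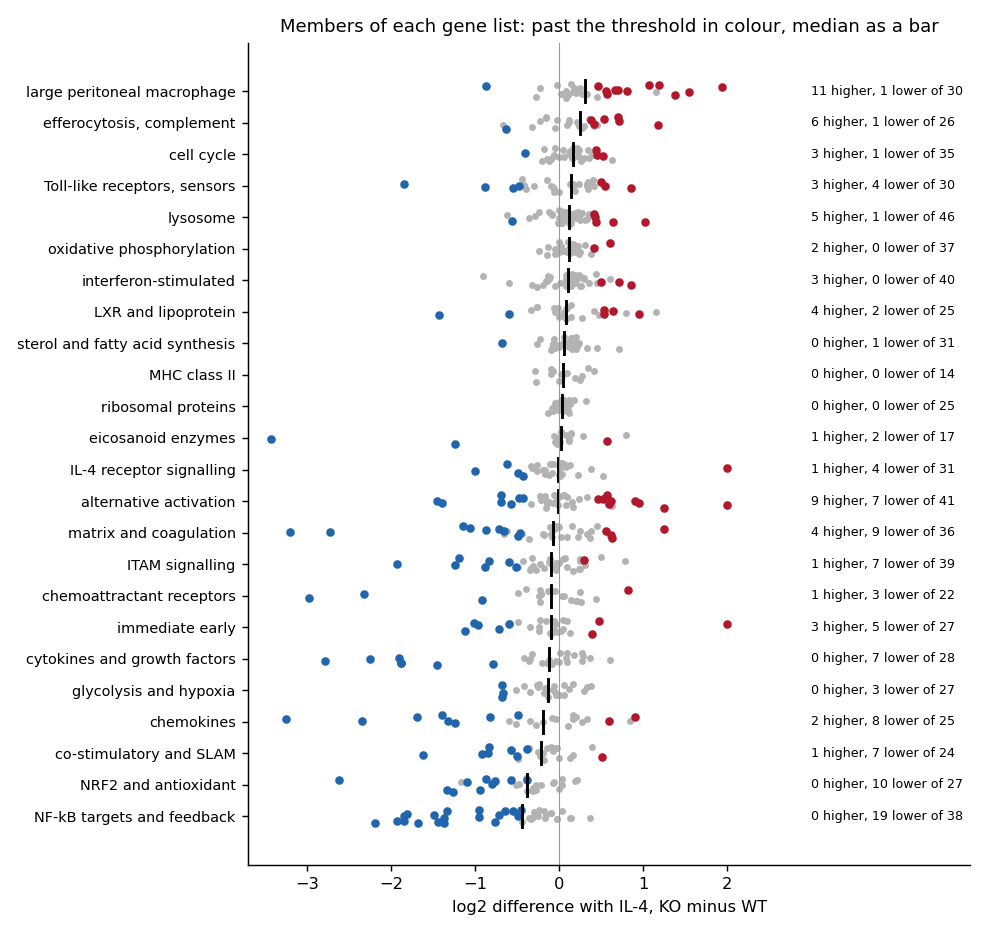
Log2 difference with IL-4, KO minus WT (x axis), of each tested gene in 24 lists (rows, ordered by their median, which is the black bar). Red points passed as higher in KO (2.44% of all tested genes), blue points as lower in KO (2.66%) and grey points did not pass. The NF-kB list has the lowest median and 19 of 38 members lower. The large peritoneal macrophage list has the highest median and 11 of 30 members higher.

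Most of the IL-4 programme rose in KO cells as it did in WT cells. Of 41 tested genes of alternative activation, IL-4 raised 33 in KO cells and 33 in WT cells, 32 of them in both, where IL-4 raised 9.39% of all tested genes in KO and 7.81% in WT. It lowered none of the 41 in either genotype, where it lowered 9.87% of all tested genes in KO and 8.6% in WT. Between the genotypes under IL-4, 9 of the 41 were higher in KO and 7 lower, against 2.44% and 2.66% of all tested genes. The median log2 difference was -0.01. Chil3, a chitinase-like secreted protein, read 4494 and 4674 units in KO with IL-4 and 4755 and 5856 in WT with IL-4, against 107 and 103 in unstimulated KO and 122 and 128 in unstimulated WT. Mrc1, the mannose receptor, read 903 and 1376 in KO with IL-4 and 1411 and 908 in WT with IL-4, so the groups overlapped. The differences were -0.21 for Chil3 (adjusted p = 0.42) and -0.02 for Mrc1 (adjusted p = 0.97). Egr2, a transcription factor of this programme, read 1992 and 1658 in KO and 1976 and 2070 in WT with IL-4, and Pparg, the nuclear receptor of lipid handling, read 281 and 274 in KO and 300 and 276 in WT. Neither passed (adjusted p = 0.54 and 0.84). Socs1, an inhibitor of cytokine receptor signalling, read 139 and 149 in KO against 140 and 141 in WT. Irf4, Tgm2, Hbegf, Igf1 and Clec7a likewise lay within 0.2 log2 units of WT without passing.

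Arg1, the arginase of alternatively activated macrophages, did not pass for a change with IL-4 in either genotype. It read 12203 on each KO array with IL-4, 10323 and 12910 in WT with IL-4, 12203 and 11252 in unstimulated KO and 12645 and 12423 in unstimulated WT. These are among the brightest values of the arrays with or without the cytokine, and the log2 difference with IL-4 was 0.08 (adjusted p = 0.75).

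**Figure D2:**
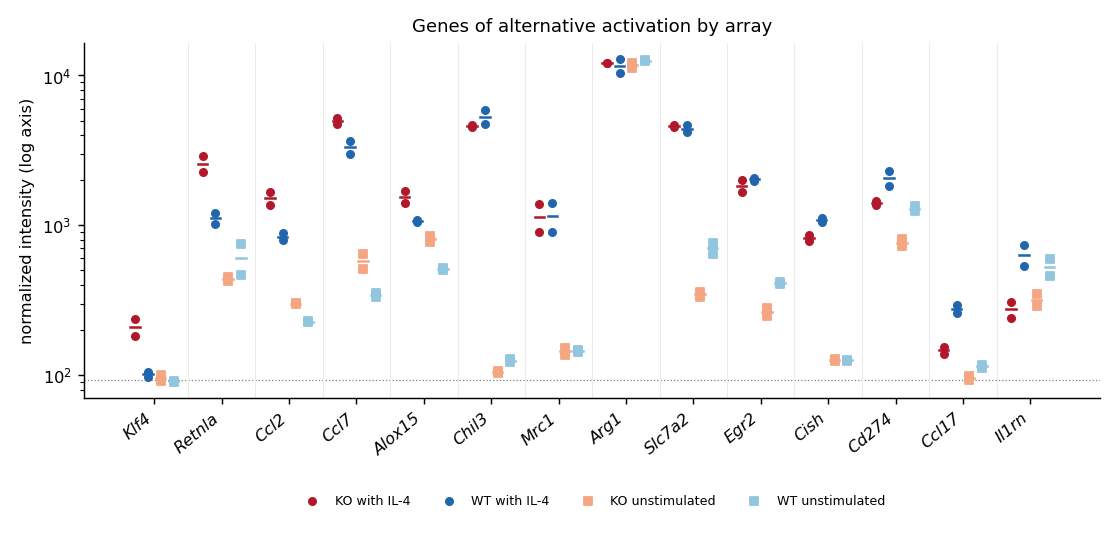
Normalized intensity (log axis) of 14 genes of alternative activation on each array, with KO left of WT, IL-4-treated cells as circles and unstimulated cells as squares; short bars are the means of 2 arrays and the dotted line is the mean background threshold. With IL-4, Klf4, Retnla, Ccl2, Ccl7 and Alox15 are higher in KO and Cish, Cd274, Ccl17 and Il1rn lower. Chil3, Mrc1, Arg1, Slc7a2 and Egr2 are close in the genotypes with IL-4, while Slc7a2 is lower in unstimulated KO than in unstimulated WT.

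Some members of the programme went further in KO cells. Klf4, a STAT6-induced transcription factor, read 183 and 236 units in KO with IL-4, against 105 and 97.1 in WT with IL-4. Klf4 had a log2 difference of 2.00 (SE 0.19, adjusted p = 1.7e-05), and of 1.04 to 2.26 over all settings. It stood at 100 and 91.6 in unstimulated KO and 91.7 and 89.8 in unstimulated WT, which is background or close to it. Klf4 thus rose with IL-4 in KO (log2 2.23, adjusted p = 2.8e-06), while its log2 change in WT was 0.49 (adjusted p = 0.10). Retnla, the secreted resistin-like molecule alpha, read 2255 and 2887 in KO with IL-4, against 1206 and 1017 in WT with IL-4 (log2 1.25, SE 0.19, adjusted p = 0.0013). Without the cytokine it was 449 and 425 in KO and 468 and 744 in WT, and the difference there, -0.49, did not pass (adjusted p = 0.20). Rnase2a, an eosinophil-associated ribonuclease induced by IL-4, read 208 and 313 in KO with IL-4 and 160 and 164 in WT with IL-4 (log2 0.96, SE 0.20, adjusted p = 0.011). The call for Rnase2a did not hold without KO replicate 2 (0.099) or without either WT array (0.0683 and 0.0598).

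The monocyte-attracting chemokines of the programme were also higher. Ccl2 read 1369 and 1662 units in KO and 885 and 793 in WT with IL-4 (log2 0.90, SE 0.11, adjusted p = 0.00027), and it passed in every setting tried. Ccl7 read 4721 and 5215 in KO and 3636 and 3001 in WT (log2 0.60, SE 0.13, adjusted p = 0.015). Alox15, the lipoxygenase of resident peritoneal macrophages, read 1411 and 1694 in KO and 1085 and 1043 in WT (log2 0.57, SE 0.11, adjusted p = 0.0056). In unstimulated cells Ccl2 was higher in KO by 0.53, Ccl7 by 0.89 and Alox15 by 0.73 on the log2 scale. Trf, which carries iron, P2ry1, a nucleotide receptor, and Flt1, a VEGF receptor, were higher by 0.62, 0.53 and 0.47. The calls for Ccl7, Alox15 and Trf did not hold without KO replicate 2 or without WT replicate 2, and those for P2ry1 and Flt1 did not hold without any 1 of the 4 IL-4-treated arrays. The number of list members higher in KO was 3 without KO replicate 2 and 3 without WT replicate 2.

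The members lower in KO included secreted regulators. Ccl17, a chemokine that attracts T helper cells, read 139 and 153 units in KO with IL-4, against 258 and 294 in WT with IL-4 (log2 -1.39, SE 0.15, adjusted p = 5.8e-05). Il1rn, the natural antagonist of the interleukin-1 receptor, read 308 and 240 in KO and 533 and 738 in WT (log2 -1.45, SE 0.20, adjusted p = 0.00059). Its other probe differed by -0.08 without passing (adjusted p = 0.81), and the mean of both probes by -0.76. Cd274, the checkpoint ligand PD-L1, read 1445 and 1359 in KO and 1819 and 2312 in WT (log2 -0.57, SE 0.12, adjusted p = 0.011). IL-4 raised Ccl17 and Cd274 in both genotypes, and the change of Il1rn with IL-4 did not pass in either. Cish, a STAT5-induced feedback inhibitor, read 856 and 787 in KO and 1043 and 1117 in WT (log2 -0.42, SE 0.11, adjusted p = 0.041). Dcstamp and Emp2, membrane proteins, differed by -0.69 each and Il27ra, a cytokine receptor, by -0.48. Ccl17 and Il1rn passed in every setting tried, and the other 5 lost their call without WT replicate 2. The number of members lower in KO was 2 without WT replicate 2 and 4 without KO replicate 1 or without KO replicate 2.

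For Retnla the promoter is shown because STAT6 is the transcription factor of the IL-4 receptor and the genotype difference of this gene changed with IL-4. Its RefSeq window on GRCm38.p6, chr16:48842359-48842658 on the plus strand, runs from 250 bases before the gene's start to 50 bases after it. Capitals mark its match to the STAT6 motif (TTC, any 4 bases, GAA) at position -145 from the start.
Retnla: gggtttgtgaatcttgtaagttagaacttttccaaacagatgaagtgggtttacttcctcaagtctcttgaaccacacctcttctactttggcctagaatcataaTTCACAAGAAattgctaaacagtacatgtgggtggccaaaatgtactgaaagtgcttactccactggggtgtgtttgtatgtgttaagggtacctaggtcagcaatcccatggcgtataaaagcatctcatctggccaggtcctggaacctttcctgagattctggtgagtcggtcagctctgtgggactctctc
The motif, a palindrome and so the same on both strands, was in the windows of 5 of 24 tested alternative activation genes that have a window, and in 6.72% of all tested genes that have one. A match is a description of the letters and not a binding site.

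Of 31 tested genes of the IL-4 receptor, its kinases, STATs and regulators 5 passed (16.1%), where 5.09% of all tested genes did. Klf4 was higher in KO, and Socs3, Kdm6b, Cebpb and Cish were lower. Socs3, an inhibitor of STAT3 signalling, read 611 and 648 units in KO with IL-4 and 974 and 1469 in WT with IL-4 (log2 -1.0, SE 0.19, adjusted p = 0.0065). Kdm6b, a histone H3 demethylase induced by inflammatory signals, differed by -0.62 and Cebpb, a transcription factor of macrophage activation, by -0.49. None of the 4 lower members passed without WT replicate 2. The other 26 did not pass, among them the kinase Jak1 (log2 0.38, adjusted p = 0.18) and the adaptor Irs2 (log2 0.52, adjusted p = 0.064).

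Of 25 tested chemokines 8 were lower in KO and 2 higher, Ccl2 and Ccl7, against 2.66% and 2.44% of all tested genes. The median log2 difference was -0.19. Cxcl1, a neutrophil chemoattractant, read 265 and 199 units in KO with IL-4, against 1562 and 1677 in WT with IL-4. After background correction, which widens the ratio of these readings, Cxcl1 was 9.50-fold lower (log2 -3.25, SE 0.20, adjusted p = 3.6e-07). Cxcl2, its neighbour in function and position, read 210 and 242 in KO and 819 and 942 in WT (log2 -2.35, SE 0.18, adjusted p = 2.5e-06). Ccl4, which attracts T cells and monocytes, read 615 and 767 in KO and 1830 and 2322 in WT (log2 -1.68, SE 0.13, adjusted p = 2.9e-06). For these chemokines every KO array lay below every WT array by a wide margin. Ccl3 (log2 -1.33) and Cxcl16, a membrane-bound chemokine and scavenger receptor (log2 -1.24), were lower as well. The calls for the 2 higher chemokines came down to 1 without KO replicate 2 and to 1 without WT replicate 2.

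Of 28 tested cytokines and growth factors, 7 were lower in KO and 0 higher, against 2.66% and 2.44% of all tested genes. The median log2 difference was -0.12. Il1b, the precursor of interleukin-1 beta, read 165 and 227 units in KO and 635 and 1419 in WT with IL-4 (log2 -2.79, SE 0.35, adjusted p = 0.00026). Its WT arrays differed from each other by more than a factor of 2, and the call was lost with robust variance estimates (adjusted p = 0.10). Tnf, tumour necrosis factor, read 162 and 144 in KO and 444 and 521 in WT (log2 -2.25, SE 0.13, adjusted p = 2e-07), and Pdgfb, a growth factor for mesenchymal cells, read 239 and 203 in KO and 603 and 667 in WT (log2 -1.88, SE 0.17, adjusted p = 1.3e-05). With robust variance estimates 4 of the list were lower. Il18, Il15 and Tnfsf14 had positive differences that did not pass (0.28, 0.37 and 0.61).

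**Figure D3:**
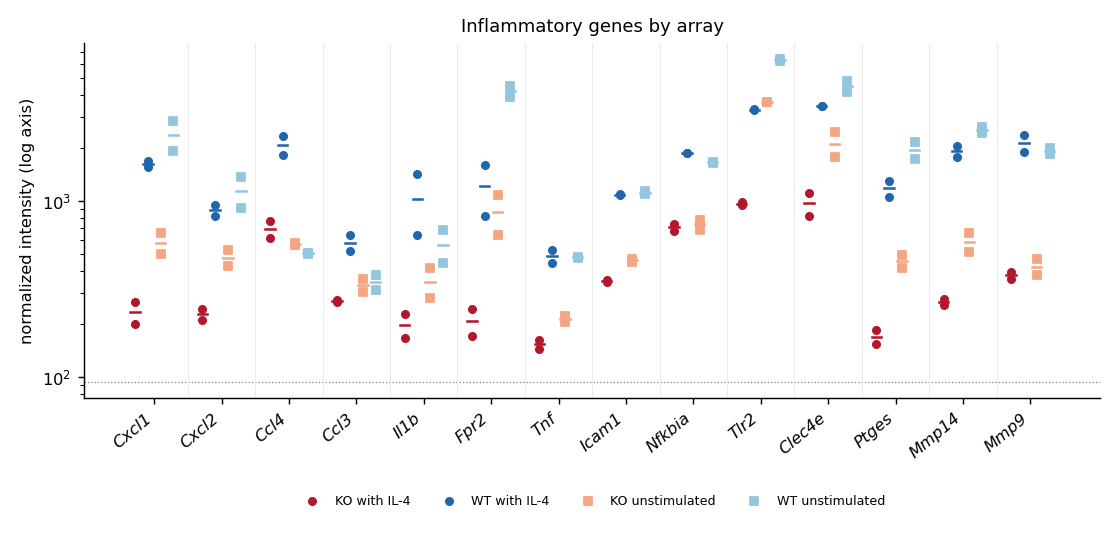
Normalized intensity (log axis) of 14 inflammatory genes on each array, drawn as in the plot of alternative activation: KO left of WT, circles with IL-4, squares unstimulated, bars the means of 2 arrays, dotted line the mean background threshold. The 14 were picked from genes called lower, so with IL-4 every KO array lies below every WT array for all of them. The same holds for 20.9% of all tested genes. For Ccl4 and Ccl3 the unstimulated genotypes lie close together.

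Of 38 tested targets and feedback regulators of NF-kB, 19 were lower and 0 higher, which is 50% of the list, where 2.66% of all tested genes were lower. The median log2 difference was -0.44. Nfkbia, the inhibitor IkB alpha and a direct NF-kB target, read 676 and 733 units in KO and 1862 and 1866 in WT with IL-4 (log2 -1.49, SE 0.10, adjusted p = 5.8e-07). Tnip1, which binds the deubiquitinase A20, read 303 and 348 in KO and 892 and 890 in WT (log2 -1.67, SE 0.11, adjusted p = 8.2e-07). Icam1, an adhesion ligand for leukocyte integrins, read 343 and 354 in KO and 1076 and 1089 in WT (log2 -1.84, SE 0.09, adjusted p = 3.4e-08). Duplicates were close together on both sides for these genes. Tnfaip2, a TNF-induced protein, differed by -2.19, Sod2, the mitochondrial superoxide dismutase, by -1.34 and Ier3, an early response gene, by -0.72. The remaining 19 members did not pass, among them Nos2 (log2 0.13), Map3k8 (0.15) and Otud7b (0.37). Leaving out arrays or changing the processing left 14 to 19 members lower.

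Promoters are shown of 5 list members that were lower in KO and have a kappa B match. Those of the chemokines Cxcl1 and Cxcl2, also lower in KO, are added. List members without a match were not eligible, so a match in each member shown was fixed in advance. Nfkbie, Nfkb2 and Nfkbid were also lower with a match and are not printed. The windows are RefSeq's on GRCm38.p6, and capitals mark matches to the degenerate kappa B consensus on either strand, merged where they overlap. The whole window is given for Cxcl1 (chr5:90890995-90891294, plus strand, first match at -71). A stretch around the first match is given for Cxcl2 (chr5:90903787-90903826, plus strand, -97), Tnfaip2 (chr12:111442622-111442661, plus strand, -24), Tnip1 (chr11:54962974-54963013, minus strand, -58), Nfkbia (chr12:55492652-55492691, minus strand, -29), Sod2 (chr17:13007741-13007780, plus strand, -83) and Ier3 (chr17:35821606-35821645, plus strand, -92).
Cxcl1: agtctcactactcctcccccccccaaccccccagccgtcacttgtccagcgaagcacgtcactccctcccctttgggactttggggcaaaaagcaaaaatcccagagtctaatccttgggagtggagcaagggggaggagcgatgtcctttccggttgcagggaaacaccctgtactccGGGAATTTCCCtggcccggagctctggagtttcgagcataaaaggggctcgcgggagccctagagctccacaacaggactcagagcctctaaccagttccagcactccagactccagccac
Cxcl2: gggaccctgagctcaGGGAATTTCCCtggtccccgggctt
Tnfaip2: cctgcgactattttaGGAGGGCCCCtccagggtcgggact
Tnip1: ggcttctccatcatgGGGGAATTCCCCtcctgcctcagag
Nfkbia: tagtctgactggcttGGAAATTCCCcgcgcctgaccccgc
Sod2: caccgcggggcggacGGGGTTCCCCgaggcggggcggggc
Ier3: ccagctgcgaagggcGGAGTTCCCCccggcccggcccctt
The consensus was in the windows of 19.4% of the genes called lower in KO (43 of 222 with a window), 12.7% of those called higher (24 of 189) and 12.2% of all tested genes with a window (986 of 8062). In the NF-kB list it was in 8 of 16 members called lower and 6 of 14 members that did not pass. The list was drawn up from known targets, so a high share in it is no finding about these arrays.

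Of 30 tested microbial sensors and adaptors, on the surface and in the cytosol, 4 were lower in KO and 3 higher. The shares over all tested genes were 2.66% and 2.44%. Tlr2, the receptor for bacterial lipopeptides, read 988 and 940 units in KO and 3263 and 3341 in WT with IL-4 (log2 -1.85, SE 0.08, adjusted p = 1.2e-08). Cd14, its lipopolysaccharide-binding partner, read 3538 and 3459 in KO and 4964 and 5194 in WT (log2 -0.55, SE 0.08, adjusted p = 0.0011), and Irak3, a brake on Toll-like receptor signalling, differed by -0.89. The adaptor Myd88 differed by -0.47, a call that was lost without KO replicate 1 or without WT replicate 2. The higher members were Ly96 (0.50), which binds lipopolysaccharide with TLR4, Nod1 (0.55), a cytosolic peptidoglycan sensor, and Aim2 (0.85), a cytosolic DNA sensor that lies near Fcer1g. The count of higher members was 1 without KO replicate 2 and 1 without WT replicate 2. The median of the list was 0.14.

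Clec4e and Clec4n, C-type lectins that use the gamma chain in mouse macrophages, were lower in their own mRNA, while the related lectin Clec4d, named after its values were seen, did not pass (log2 -0.27, adjusted p = 0.16). Clec4e, the receptor Mincle for mycobacterial glycolipid and dead cells, read 818 and 1114 units in KO and 3459 and 3447 in WT with IL-4 (log2 -1.93, SE 0.16, adjusted p = 5.6e-06). Clec4n, the fungal mannan receptor Dectin-2, read 1015 and 809 in KO and 1572 and 2665 in WT (log2 -1.24, SE 0.19, adjusted p = 0.0014). It lost its call with robust variance estimates (adjusted p = 0.083). Clec5a, a lectin that signals through DAP12, read 195 and 155 in KO and 270 and 363 in WT (log2 -1.19, SE 0.19, adjusted p = 0.0021). Clec7a, Dectin-1, which carries its own signalling motif and needs no chain, read 10648 and 10170 in KO and 11286 on each WT array, a difference of -0.12 that did not pass. Tyrobp, the other ITAM adaptor, which encodes DAP12, read 3341 and 3645 in KO and 3102 and 2815 in WT (log2 0.24, adjusted p = 0.26). Of 39 tested genes of ITAM signalling 7 were lower and 1 higher, against 2.66% and 2.44% of all tested genes. Prkcd, a protein kinase C that acts below Syk, was among the lower (log2 -0.88, SE 0.08, adjusted p = 1.7e-05). Lat2, an adaptor, was the higher member at 0.30 (adjusted p = 0.049), and lost its call without any 1 of the 8 arrays.

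Of 22 tested receptors for chemoattractants and metabolites 3 were lower in KO, 1 was higher and 18 did not pass. Among all tested genes 2.66% were lower and 2.44% higher. Fpr2, a formyl peptide receptor, read 170 and 242 units in KO and 815 and 1605 in WT with IL-4 (log2 -2.98, SE 0.31, adjusted p = 4.6e-05), and the call was lost with robust variance estimates (adjusted p = 0.065). Gpr84, a receptor for medium-chain fatty acids, read 1000 and 1185 in KO and 5017 and 5303 in WT (log2 -2.32, SE 0.10, adjusted p = 7.4e-09). Ccrl2, which presents the chemoattractant chemerin, had a log2 difference of -0.91, and P2ry14, a receptor for UDP-glucose, was the member higher in KO (0.82).

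After Fcer1g, the lowest log2 difference of all tested genes was that of Ptges. This inducible prostaglandin E synthase read 154 and 183 units in KO and 1298 and 1055 in WT with IL-4. After background correction, which widens the ratio of these readings, it was 10.8-fold lower (log2 -3.43, SE 0.16, adjusted p = 2.1e-08). Pla2g7, which degrades platelet-activating factor, read 179 on each KO array and 295 and 379 in WT (log2 -1.24). Alox5, the leukotriene-forming lipoxygenase, and Hpgds, a prostaglandin D synthase, differed by -0.06 and 0.14 without passing. Among all tested genes 2.66% were lower and 2.44% higher. Of 17 tested eicosanoid enzymes 2 were lower and 1, Alox15, higher (0 without KO replicate 2 or without WT replicate 2).

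Of 36 tested genes of matrix and coagulation 9 were lower in KO, 4 were higher and 23 did not pass. The shares over all tested genes were 2.66% lower and 2.44% higher. The median log2 difference of the list was -0.08. Mmp14, a membrane-anchored collagenase, read 257 and 274 units in KO and 1784 and 2040 in WT with IL-4 (log2 -3.20, SE 0.13, adjusted p = 7.4e-09). Mmp9, a gelatinase, read 360 and 392 in KO and 2366 and 1886 in WT (log2 -2.72, SE 0.14, adjusted p = 3.2e-08). Mmp12, the macrophage elastase, differed by -1.06, Timp1, a metalloproteinase inhibitor, by -1.15, and Serpinb2, an inhibitor of plasminogen activators, by -0.87. In contrast F13a1, the A subunit of the clot-stabilising transglutaminase and a marker of alternatively activated cells in humans, was higher at 1662 and 1413 in KO, against 733 and 639 in WT (log2 1.24, SE 0.15, adjusted p = 0.00014). The lower members were 5 without KO replicate 2 or without WT replicate 2. The higher members were 2 without KO replicate 1, without KO replicate 2 or without WT replicate 2.

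The list of antioxidant genes had more members lower than any other of the 37 lists but the NF-kB one. Of 27 tested members 10 were lower and 0 higher, against 2.66% and 2.44% of all tested genes, with a median of -0.39. Slc7a11, the cystine importer that feeds glutathione synthesis, read 183 and 134 units in KO and 497 and 779 in WT with IL-4 (log2 -2.62, SE 0.23, adjusted p = 1.1e-05). Slc48a1, a heme transporter, read 1141 and 897 in KO and 2123 and 2564 in WT (log2 -1.26, SE 0.14, adjusted p = 9.7e-05), and Sqstm1, the autophagy receptor p62, read 746 and 673 in KO and 1283 and 1305 in WT (log2 -0.93). Fth1, the ferritin heavy chain and one of the brightest transcripts, differed by -0.08 without passing. Over all settings 7 to 12 members were lower.

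Among early response genes, Fos (log2 -1.02), a subunit of the factor AP-1, and the phosphatases Dusp1 (-0.97) and Dusp4 (-1.12), which switch off MAP kinases, were lower. Fos read 128 and 112 units in KO and 182 and 167 in WT with IL-4, and its log2 difference was -1.23 to -0.54 over all settings. Klf2, a factor that restrains myeloid activation, was higher at 835 and 821 in KO against 646 and 581 in WT (log2 0.48, adjusted p = 0.012), without passing when either KO array or WT replicate 2 was left out. Of 27 tested early response genes 5 were lower and 3 higher, Klf4 among them, and 1 was higher without KO replicate 2 or without WT replicate 2.

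In arginine metabolism Ass1 and Arg2 passed, while Asl, argininosuccinate lyase, differed by -0.27 without passing (adjusted p = 0.29). Ass1, argininosuccinate synthase, which rebuilds arginine from citrulline, read 334 and 339 units in KO and 1006 and 1450 in WT with IL-4 (log2 -2.08, SE 0.17, adjusted p = 4.8e-06). Arg2, the mitochondrial arginase, read 90.3 and 94.0 in KO, at background, and 112 and 114 in WT (log2 -0.83, adjusted p = 0.016), and lost its call without KO replicate 1 or without either WT array. Slc7a2, the arginine transporter induced by IL-4, read 4648 and 4507 in KO and 4637 and 4185 in WT. Of 19 tested genes 2 were lower and 0 higher, against 2.66% and 2.44% of all tested genes. Upp1, a uridine phosphorylase of pyrimidine salvage, read 702 and 1070 in KO and 3549 and 3799 in WT (log2 -2.17, SE 0.33, adjusted p = 0.0013), lost with robust variance estimates (adjusted p = 0.16). H2-M2, a non-classical histocompatibility gene, differed by -2.43 and Flrt3, an adhesion protein, by -2.29.

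On the high side stood genes of resident, large peritoneal macrophages. Of 30 tested members of that list 11 were higher in KO and 1 lower, against 2.44% and 2.66% of all tested genes. The median log2 difference was 0.30. Vsig4, a complement receptor of resident macrophages, read 5348 and 5823 units in KO and 2617 and 2366 in WT with IL-4 (log2 1.19, SE 0.10, adjusted p = 6.8e-06). Rarb, a retinoic acid receptor, read 171 and 175 in KO and 108 and 105 in WT (log2 1.39, SE 0.15, adjusted p = 7.5e-05). Padi4, which converts protein arginine to citrulline, read 212 and 247 in KO and 133 and 112 in WT (log2 1.54, SE 0.18, adjusted p = 0.00012). Over all settings the log2 difference was 0.70 to 1.44 for Rarb and 0.91 to 1.82 for Padi4. Gata6, the defining transcription factor of these cells, read 1205 and 1314 in KO and 909 and 951 in WT (log2 0.46, adjusted p = 0.0098). It is named after its values were seen, as the lineage factor. The lower member was Serpinb2, and Timd4, a phosphatidylserine receptor of long-lived residents, overlapped between the groups at 130 and 178 in KO and 173 and 158 in WT. Selp and F5 of the list lie near Fcer1g. Without KO replicate 2 the higher members numbered 7.

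Of 26 tested genes for clearing dying cells 6 were higher in KO and 1 lower, against 2.44% and 2.66% of all tested genes. Gas6, which bridges phosphatidylserine to TAM receptors, read 133 and 163 units in KO and 106 and 97.5 in WT with IL-4 (log2 1.18, SE 0.17, adjusted p = 0.00096). Its log2 difference was 0.54 to 1.44 over all settings. Pros1, protein S, the other bridging ligand, read 1039 and 995 in KO and 659 and 636 in WT (log2 0.71, SE 0.10, adjusted p = 0.0005), and C4b, a complement component, read 2491 and 2564 in KO and 1658 and 1502 in WT (log2 0.70). Axl, the TAM receptor of inflamed cells, ran the other way at 779 and 632 in KO and 968 and 1131 in WT (log2 -0.62, adjusted p = 0.012), without passing when KO replicate 2 or WT replicate 2 was left out. Mertk, its counterpart in resident cells, differed by 0.42 without passing (adjusted p = 0.054). The 6 higher members came down to 3 without KO replicate 2, without WT replicate 2 or with no variance trend.

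Lysosomal and lipid genes held a few marked differences. The shares to set beside their counts are 2.44% higher and 2.66% lower over all tested genes. Lgmn, the protease legumain, read 4770 and 4721 units in KO and 2517 and 2208 in WT with IL-4 (log2 1.03, SE 0.09, adjusted p = 9.9e-06), whereas Ctsc, cathepsin C, was lower at 4428 and 4414 in KO and 6429 and 6512 in WT (log2 -0.56, SE 0.08, adjusted p = 0.00062). Of 46 tested lysosomal genes 5 were higher and 1 lower, and the higher ones numbered 1 to 3 when any IL-4-treated array was left out. Nr1h3, the oxysterol receptor LXR alpha, was lower at 159 and 161 in KO and 333 and 309 in WT (log2 -1.43, SE 0.11, adjusted p = 2.5e-06). Abcg1, a cholesterol exporter that LXR induces, was higher at 135 and 157 in KO and 109 and 104 in WT (log2 0.96, SE 0.16, adjusted p = 0.0023). Its log2 difference was 0.45 to 1.15 over all settings. Nceh1, a cholesteryl ester hydrolase, was higher by 0.65 and Apoe overlapped between the groups (0.05). Of 25 tested genes of LXR and lipoproteins 4 were higher and 2 lower. The higher ones numbered 2 without WT replicate 1, and the lower ones 1 when KO replicate 2, either WT array with IL-4 or either unstimulated WT array was left out.

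Of the largest increases outside the Fcer1g region, several were themselves induced by IL-4. Gask1b, a Golgi-associated protein, read 577 and 465 units in KO and 210 and 218 in WT with IL-4, against 132 and 130 in unstimulated KO and 111 and 99.6 in unstimulated WT (log2 difference with IL-4 1.61, SE 0.15, adjusted p = 1.9e-05). Lipn, a lipase of the acid lipase family, read 447 and 450 in KO and 234 and 209 in WT with IL-4, and was near background without it (log2 difference with IL-4 1.30). Asz1 read 471 and 674 in KO and 329 and 256 in WT with IL-4 and 105 to 114 over the unstimulated arrays (log2 difference with IL-4 1.15). Serpinb1a, a protease inhibitor, read 615 and 420 in KO and 203 and 254 in WT with IL-4 (log2 1.45, SE 0.20, adjusted p = 0.00051). Emilin2, an extracellular matrix glycoprotein, differed by 1.07, Selenop, a plasma selenoprotein, by 1.18, Rasgrp3, an exchange factor for Ras, by 1.19 and Scml4 by 1.30.

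The share of members past the test ran from 0% to 15.4% in the lists that follow, where 5.09% of all tested genes passed. Of 14 tested genes of MHC class II 0 passed, with H2-Aa at 0.35 (adjusted p = 0.37) and H2-Eb1 at -0.09 (adjusted p = 0.82), and 0 of 25 ribosomal proteins passed. Of 37 genes of oxidative phosphorylation 2 were higher (0 without KO replicate 2) and 0 lower, and Idh1, the cytosolic isocitrate dehydrogenase, was the member of fatty acid oxidation and the citric acid cycle that passed (1 of 31, log2 0.66). Glycolysis had 3 of 27 lower: Pfkl (-0.68) and Pfkp (-0.68), phosphofructokinases, and Slc2a1 (-0.67), the glucose transporter GLUT1. The other probe of Pfkl differed by -0.13 without passing (adjusted p = 0.69). Pfkp and Slc2a1 lost their calls without KO replicate 2 or without WT replicate 2. Of 40 interferon-stimulated genes 3 were higher (1 without KO replicate 2 or without WT replicate 2) and 0 lower, of 31 genes of sterol and fatty acid synthesis 1 was lower, and of 23 genes of the unfolded protein response 1 was lower (0 without KO replicate 1 or without WT replicate 2). Of 35 cell cycle genes 4 passed (11.4%), the helicase subunits Mcm2, Mcm4 and Mcm6 as higher and Cdkn1a, the inhibitor p21, as lower (log2 -0.41, adjusted p = 0.036). None of the 3 helicase subunits passed when any IL-4-treated array was left out, and Cdkn1a did not pass without KO replicate 2 or without either WT array. Of 20 scavenger receptors 0 were higher and 2 lower (10%), of 26 integrins and adhesion genes 3 were higher and 1 lower (15.4%), and of 21 markers of dendritic cells and the small kind of peritoneal macrophage 1 was higher and 1 lower, with 0 lower when either KO array or WT replicate 2 was left out.

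Most of what set the genotypes apart under IL-4 was also there without it. Of the 502 genes, 287 passed in the same direction in unstimulated cells, where 517 genes passed in all (5.25%), 258 higher (2.62%) and 259 lower (2.63%), and 0 passed in opposite directions. The shared genes are 57.2% of the calls with IL-4 and 55.5% of those without. These contrasts have no array in common, but both come from the same fit and share its estimate of each gene's spread. Same-numbered arrays also deviated from their group means together within a genotype, at a correlation of 0.23 in KO and 0.15 in WT. The overlap is therefore not a count from independent tests. Among the 240 genes higher with IL-4, 224 had a positive difference in unstimulated cells, and among the 262 lower ones 250 had a negative difference. Over all tested genes, which are not independent of each other, the differences correlated at Pearson's r 0.692 and Spearman's rho 0.407.

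A test of the change itself, the difference with IL-4 minus the difference without, passed for 12 genes (0.122%), 4 in the positive direction (0.0406%) and 8 in the negative (0.0812%). At an unadjusted p under 0.05 the number was 647. For Ccl4, unstimulated cells held 578 and 563 units in KO and 504 and 500 in WT, and IL-4 raised it in WT (log2 2.19, adjusted p = 1.3e-07), while its change in KO was 0.30 (adjusted p = 0.14). Ccl3 stood at 265 and 271 in KO and 519 and 635 in WT with IL-4, and 359 and 304 in KO and 379 and 310 in WT without. For these chemokines the unstimulated genotypes lay close together, and those treated with IL-4 did not overlap. Tlr2 fell with IL-4 in both genotypes, by more in KO (log2 -1.99) than in WT (-0.95). Gpr84 fell in KO (log2 -0.96, adjusted p = 1.3e-05), and its change in WT was -0.03 (adjusted p = 0.87).

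Slc7a2 ran the other way. Unstimulated KO cells held 332 and 359 units against 644 and 758 in unstimulated WT (log2 difference -1.18, adjusted p = 1.7e-05), and with IL-4 the groups overlapped. Klf4 and Retnla, described above, were with Slc7a2 the members of alternative activation that passed in the positive direction. Ccl4 and Tlr2 passed this test in every setting tried, Slc7a2 in all but the mean over probes (adjusted p = 0.21), and the other 9 lost the call when at least 1 array was left out. The number of genes was between 3 and 10 when a single array was left out.

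**Figure D4:**
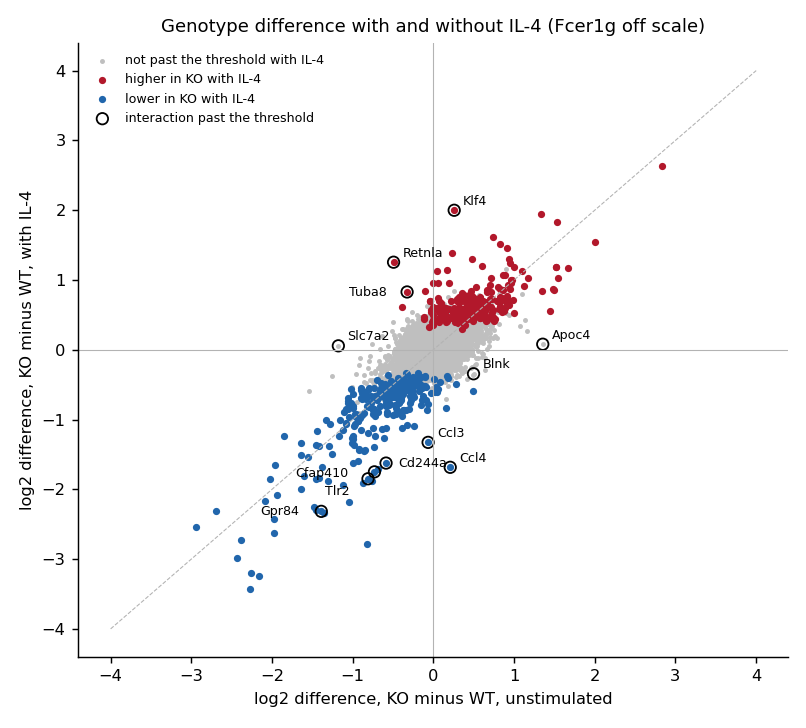
Log2 difference KO minus WT with IL-4 (y axis) against the same difference in unstimulated cells (x axis), 1 point a tested gene, with Fcer1g off the scale. Coloured points passed with IL-4 (240 higher in red, 262 lower in blue), circles mark the 12 genes whose difference changed with IL-4, and the dashed line marks equal differences.

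Genes next to Fcer1g on chromosome 1 passed at a higher share than genes elsewhere, a difference that was not tested. Counted in the order of tested genes, 6 of the 20 nearest (10 on each side) passed with IL-4, 16 of the 50 nearest and 24 of the 200 nearest, which are 30%, 32% and 12%. On the rest of the chromosome 18 of 307 passed (5.86%) and elsewhere 459 of 9348 (4.91%). Uap1, an enzyme of amino sugar synthesis, read 121 and 116 units in KO and 391 and 362 in WT with IL-4 (log2 -2.55, SE 0.12, adjusted p = 2.3e-08). Vsig8, an immunoglobulin-family membrane protein, read 85.1 and 87.0 in KO, below background, and 165 and 170 in WT, at least 1.79-fold lower in KO (adjusted p = 3.6e-07). Selp, the adhesion receptor P-selectin, was higher at 419 and 420 in KO and 153 and 161 in WT (log2 1.95, SE 0.21, adjusted p = 5.8e-05). Ifi202b, an interferon-inducible gene that lies 31 tested genes away and is named after its values were seen, read 181 and 222 in KO and 84.6 and 90.3 in WT, below background, at least 2.15-fold higher in KO (adjusted p = 1.4e-06).

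The SLAM family of lymphocyte and myeloid co-receptors sits in the same stretch. Cd244a read 93.9 and 96.9 units in KO and 160 and 156 in WT with IL-4 (log2 -1.62, SE 0.12, adjusted p = 2.5e-06), and Ly9 read 205 and 218 in KO and 335 and 322 in WT (log2 -0.85, SE 0.11, adjusted p = 0.00027). Cd48 was below background in KO and at 112 and 110 in WT, at least 1.19-fold lower in KO (adjusted p = 0.00064). Slamf9 and Cd84 differed by -0.50 and -0.38, calls that did not hold without KO replicate 2 or without WT replicate 2. Of 24 tested co-stimulatory and SLAM genes 7 were lower in KO, 1 was higher and 16 did not pass. Among all tested genes 2.66% were lower and 2.44% higher. Fewer of the lower ones passed without KO replicate 2 or without WT replicate 2. The higher member, Lgals9 (0.51), did not pass when any IL-4-treated array was left out. Of the 7 lower genes, 2 lay more than 100 tested genes from Fcer1g, Cd82 (-0.83) and Cd274. For all genes of this stretch the effect of the missing chain cannot be told apart from that of the region carried along with the targeted gene.

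**Figure D5:**
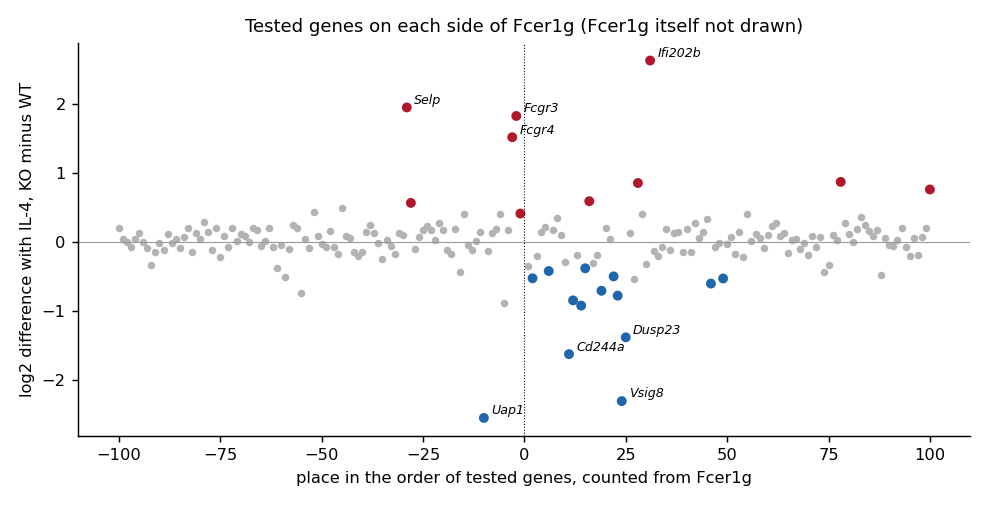
Log2 difference with IL-4, KO minus WT (y axis), of 100 tested genes to the left and 100 to the right of Fcer1g in chromosomal order (x axis, place counted from Fcer1g, which is not drawn). Coloured points passed as higher (red) or lower (blue) in KO; 16 of the 50 nearest genes passed, against 5.86% on the rest of the chromosome.

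The cells were macrophages by their markers on every array. Lyz2, lysozyme, read 18303 on each KO array and 18303 and 16825 in WT with IL-4, the top of the scale, and Adgre1, which encodes F4/80, read 2844 and 2991 in KO and 1930 and 1984 in WT with IL-4 (log2 0.59, SE 0.08, adjusted p = 0.00072). Of 15 tested general macrophage genes 2 were higher (1 when either KO array or WT replicate 1 was left out) and 3 lower (1 without WT replicate 2). The summed intensity of the list ran from 46603 to 49077 in KO and from 49276 to 51972 in WT. The list of large peritoneal macrophages summed to between 81767 and 82176 in KO and between 73820 and 79886 in WT.

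Markers of other cells were low but not all absent. Of 15 T and NK cell markers with a probe, 10 were above background on both KO arrays and 10 on both WT arrays, with Cd4 and Cd8a below it. Their sum was 1785 to 1957 in KO and 1664 to 1744 in WT with IL-4. Cd3d read 205 and 196 units in KO and 129 and 120 in WT (log2 1.20, SE 0.19, adjusted p = 0.0014), Cd3e differed by 0.79 and Nkg7 by 0.60. Cd3e did not pass without KO replicate 1 (adjusted p = 0.070) or WT replicate 2 (0.086), and Nkg7 did not pass without either KO array or WT replicate 2, which leaves 1 higher member without KO replicate 1 or without WT replicate 2. Of 10 tested T and NK cell markers 3 were higher and 0 lower, against 2.44% and 2.66% of all tested genes. Of the 10, 8 had a positive difference and 2 a negative one, Il7r (-0.70) and Klrb1c (-0.15), neither of which passed. The part of T and NK cells in the other differences was not tested. The neutrophil list summed to 2027 to 2285 in KO and 2245 to 2384 in WT, with S100a8 at 830 and 1059 in KO and 925 and 1080 in WT, and Lcn2, Ltf and Mpo below background. Of 5 tested neutrophil genes 2 were lower in KO, Csf3r and Retnlg, and 0 were lower when any IL-4-treated array was left out. Csf3r, a growth factor receptor, read 221 and 233 in KO and 315 and 295 in WT, and Retnlg, at 83.5 and 85.9 in KO and 97.1 and 97.6 in WT, lay close to background. B cell genes summed to 3593 to 4216 in KO and 3073 to 4476 in WT, with 0 of 10 tested past the threshold. Of 8 tested mast cell and eosinophil genes and of 6 stromal genes 0 passed.

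Where a gene has several probes, the one with the highest mean was used. Of the called genes, 159 have another probe above background, and 222 of these 239 other probes had the same sign as the probe used (92.9%). Elmo1, an engulfment adaptor counted among the 6 higher clearance genes and named after its values were seen, has 11 other probes above background, of which 5 have the opposite sign and none passed.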

How the data were processed

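Gene expression was measured on 8 arrays, 2 for each of 4 groups assigned from the sample titles. The authors deposited normalized intensities on a linear scale, made with GenomeStudio per the submitters' processing notes, with no version given. The sorted columns differ by at most 0.57 units, which is how quantile-normalized values look, and the lowest value is 78.4, so no background had been subtracted. A second table, with 8 signal columns whose headings match no label, was not used; the test had been planned on non-normalized signals and was run on these normalized intensities instead.

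Intensities were background-corrected (normexp, offset 16) and log2-transformed. Of 25697 probes, 14430 lay above background (the mode plus 1.645 SD of the values below it) on both arrays of at least 1 group. The probe with the highest mean stood for each of 9856 genes. Gene names come from the platform annotation, of which 23978 probes have 1 symbol and 1719 none. limma 3.58.1 in R 4.3.3 fitted 4 group means on all 8 arrays with a variance trend (4 residual and 9.31 prior degrees of freedom) and Benjamini-Hochberg adjustment at 0.05. A gene below background on every array of a group has only a bound there, given as an "at least" fold on the deposited intensities. The fit was tested on simulated data. matplotlib 3.10.9 drew the figures.

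Named genes are all tested Fc receptor and alternative activation genes, the 15 largest increases and decreases away from Fcer1g, up to 4 members a direction and the brightest member of each of 37 lists, called genes within 25 tested genes of Fcer1g, and genes past the interaction test. The comparison and the lists were chosen with earlier results of these data known, so list counts are descriptions. Alternatives covered background correction, offset, normalization, probe filter, probe choice, variance moderation, a replicate block, the arrays fitted, the Fcer1g region, and leaving out each array. The number of arrays limits precision.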

Additional observations from a re-analysis of the deposited data

Results flagged for a closer look

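The genotype difference of 12 genes was not the same with and without IL-4 by the interaction test of the limma fit. The values are the log2 difference KO minus WT with IL-4, minus that without IL-4. For 8 genes it was negative. Ccl4 had -1.89 (SE 0.19, adjusted p = 0.0012) and Ccl3 had -1.26 (SE 0.21, adjusted p = 0.039). Tlr2 had -1.04 (SE 0.11, adjusted p = 0.0023), Gpr84 had -0.93 (SE 0.14, adjusted p = 0.027) and Cd244a, near Fcer1g, had -1.04 (SE 0.18, adjusted p = 0.045). Blnk, a B cell and myeloid adaptor, had -0.84 (SE 0.15, adjusted p = 0.048) and Cfap410 had -1.02 (SE 0.17, adjusted p = 0.039). Apoc4, an apolipoprotein, had -1.28 (SE 0.20, adjusted p = 0.035). It was below background on all arrays with IL-4 and read 135 and 143 units in unstimulated KO against 97.6 and 91.0 in unstimulated WT.

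For 4 genes the value was positive. Slc7a2 had 1.23 (SE 0.15, adjusted p = 0.0046), Klf4 had 1.74 (SE 0.27, adjusted p = 0.033), Retnla had 1.75 (SE 0.27, adjusted p = 0.033) and Tuba8, a tubulin, had 1.15 (SE 0.19, adjusted p = 0.039).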

How the results depend on the processing

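The number of genes that differ with IL-4 was 415 to 550 over the settings that keep all IL-4-treated arrays. Leaving out 1 array gave 257 to 479 genes, 105 to 227 higher and 152 to 252 lower. In unstimulated cells it gave 293 to 523 genes, 139 to 262 higher and 143 to 261 lower. The called genes within 100 places of Fcer1g, that gene included, numbered 25 and were 15 to 23 when 1 array was left out. For the interaction, leaving out 1 array gave 3 to 10 genes, 1 to 4 positive and 2 to 6 negative. The interaction count was 19 with no background correction (8 positive), 19 with no filter on dim probes (13 negative) and 4 with probes above background on all 8 arrays (1 positive, 3 negative). Positive genes numbered 8 with offset 50 and 2 when all probes of a gene were averaged, while negative genes numbered 5 with no variance trend. The cause was not tested. Same-numbered arrays deviated from their group means together within a genotype, with correlations of 0.23 for the KO pair of groups and 0.15 for the WT pair. The other 4 pairs gave -0.093 to 0.0057, with -0.031 for KO against WT with IL-4, so the numbers were not taken to pair KO with WT samples. The replicate block is a term shared by both genotypes, and with it 550 genes differed. Pairing of treated with unstimulated arrays within a genotype was not fitted. Of 147 named genes past the threshold, 84 passed in every setting, 63 lost the call in at least 1 and 0 reversed.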
